A study of Mus musculus with 6 samples.

Results

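The genes described here are 10 transcription factor and early response genes: the Fos family (Fos, Fosb, Fosl1 and Fosl2), the Jun family (Jun, Junb and Jund), Egr1, Ier3 and Myc. They were taken by symbol from 19937 genes of a mouse whole-transcript array, and all 10 were measured, each by 1 probe set, so no choice between probe sets was needed. RNA came from mammary epithelial organoids, small pieces of gland released by enzymes and grown in growth factor-reduced Matrigel, a basement-membrane gel. All cultures, controls included, came from age-matched female FVB mice of the genotype named ErbB3 DOX-KO, in which doxycycline (DOX) is meant to switch on a knockout of the receptor gene Erbb3. The 3 control cultures received no DOX and the 3 others received 5 µM DOX, all for 14 days. The promoter that drives the system, the deleted exons and the ages of the mice are not given in the labels. Cultures of other genotypes with DOX are not analysed here, so effects of the drug and of the knockout cannot be told apart. The design text calls the 3 cultures per group biological replicates, without saying whether each came from a different mouse. The p-values measure the spread between these arrays, and the number of arrays limits the precision.

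Early genes are switched on within minutes to hours of a signal, without new protein synthesis. Growth factor receptors of the ErbB family reach them through the MAP kinases ERK and JNK, which act on serum response factor with its ETS partners at Fos and Egr1 and on Jun protein. Fos proteins pair with Jun proteins to form the dimer AP-1, which binds the DNA element called TRE, whereas Jun proteins can also pair with each other. Egr1 is a zinc finger factor of the same early wave, Ier3 is a short-lived stress and survival protein, and Myc pairs with Max to drive growth genes. The comparison asks how the transcripts of these genes stood after 14 days with or without the inducer, which is a steady culture and not the first hours of a response.

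The values are log2 expression summaries, in which a difference of 1 is a 2-fold difference. Erbb3, the targeted gene, read 9.78, 9.71 and 9.69 in controls and 10.36, 9.31 and 9.82 in DOX replicates 1, 2 and 3, so it was not lower as a group in the arrays labelled DOX (difference 0.10, 95% confidence interval −0.58 to 0.79, limma adjusted p = 0.845). Without DOX replicate 2 the difference of Erbb3 was 0.37 (limma adjusted p = 0.105). How far the deletion took place, and whether the probe set lies outside the deleted part, was not tested. Directions below follow the arrays as labelled. DOX replicate 2 stood apart: its correlation with the other arrays was 0.816 to 0.865 across genes, against 0.963 to 0.996 among those 5, and its values were compressed. Genes in the top 10% of control levels differed from their control mean by a median of −1.59 there, and genes in the lowest 10% by 0.84. Luminal epithelial markers other than Krt19 and Elf3 read 10.22 (Cldn7) to 12.69 (Krt18) in controls, whereas Krt19 read 4.67 to 4.92 and Elf3 6.56 to 6.63. Basal markers other than Krt14 and Oxtr read 4.27 (Cnn1) to 5.49 (Krt5), so Krt19 lay as low as these. The mean level of 8 fibroblast markers was 4.98 to 5.10 in controls and 4.94, 5.80 and 5.18 in DOX replicates 1, 2 and 3, and 0 of them passed in limma with or without DOX replicate 2. At an unadjusted p under 0.05 the count was also 0 in both fits. Of 10 luminal markers 1 rose and 4 fell without DOX replicate 2, and 0 passed with all arrays in limma, with 1 higher and 4 lower at an unadjusted p under 0.05. Of 9 basal markers 2 fell without DOX replicate 2. Krt14 fell by 1.06 and Oxtr fell by 1.71 there, and with all arrays Oxtr fell by 1.91 and was the only one called (limma adjusted p = 0.018). Over all genes the fit without DOX replicate 2 called 12.3% higher and 14.3% lower, and that with all arrays 0.120% and 2.26%. None of 5 endothelial and 5 adipocyte markers passed in limma in either fit, and 0 did at an unadjusted p under 0.05. Of 7 immune markers, Cd68 and Ptprc were higher without DOX replicate 2, by 1.01 and 0.38. The other 5 did not pass in that fit, with differences of −0.22 (Adgre1) to 0.13 (Itgam). With all arrays 0 of the 7 passed in limma, with 1 higher at an unadjusted p under 0.05. The call of Cd68 held in all 7 further settings without DOX replicate 2 and that of Ptprc in 1 of 7 (highest adjusted p 0.125). The part of these cell types in the results below was not tested. In bulk RNA, fewer cells of a type and less RNA per cell cannot be told apart.

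The 250 bases before the start of 4 of these genes are shown because these genes either differed between groups without DOX replicate 2 (Jun, Jund and Ier3) or read lower on every array labelled DOX (Fos). Of all genes, 26.6% were called in that fit, and 20.3% read below every control on every array labelled DOX. The sequences are those of RefSeq for GRCm38.p6, written along the gene's strand. Such sequences were read for 7 of the 10 genes, not for Egr1, Fosl1 and Myc. They lie at chr12:85473640-85473889 (plus strand) for Fos, chr4:95052223-95052472 (minus strand) for Jun, chr8:70697489-70697738 (plus strand) for Jund and chr17:35821463-35821712 (plus strand) for Ier3. Capitals mark matches, on either strand, to the motifs given after the sequences.
Fos: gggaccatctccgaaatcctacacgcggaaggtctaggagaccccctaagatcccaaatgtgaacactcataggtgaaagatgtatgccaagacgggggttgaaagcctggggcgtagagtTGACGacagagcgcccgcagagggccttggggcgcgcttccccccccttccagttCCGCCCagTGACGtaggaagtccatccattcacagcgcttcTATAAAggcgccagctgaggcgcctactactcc
Jun: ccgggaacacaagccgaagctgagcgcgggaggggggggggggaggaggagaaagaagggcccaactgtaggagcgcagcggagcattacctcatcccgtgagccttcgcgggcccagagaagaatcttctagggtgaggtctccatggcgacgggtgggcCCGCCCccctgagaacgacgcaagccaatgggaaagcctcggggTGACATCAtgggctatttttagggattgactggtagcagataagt
Jund: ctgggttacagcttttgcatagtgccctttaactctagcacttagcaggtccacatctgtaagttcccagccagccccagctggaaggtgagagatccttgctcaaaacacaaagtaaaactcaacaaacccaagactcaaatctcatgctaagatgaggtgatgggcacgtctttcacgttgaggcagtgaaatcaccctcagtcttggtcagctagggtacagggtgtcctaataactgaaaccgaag
Ier3: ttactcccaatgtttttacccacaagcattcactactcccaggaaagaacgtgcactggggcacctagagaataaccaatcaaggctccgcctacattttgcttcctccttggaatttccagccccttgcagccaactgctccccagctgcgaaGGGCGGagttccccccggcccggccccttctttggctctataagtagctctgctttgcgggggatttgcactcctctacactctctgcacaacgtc

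The AP-1 element was searched as TGANTCA, on both strands as for each motif here. The cyclic AMP element was searched as TGACGTCA, and its core alone as TGACG. An AP-1-like octamer known from the Jun promoter was searched as TGACATCA. The element bound by Egr1 was searched as GCGNGGGCG, and the GC box of Sp factors as GGGCGG. The E-box that Myc and Max bind was searched as CACGTG. The set was completed by TATAAA and the CArG box of serum response factor. The core is part of the longer cyclic AMP element, and the GC box can overlap the EGR element. The Jun window holds TGACATCA at 45 to 38 bases before the start, a motif in 2.93% of 32851 windows of this length. The Fos window holds the core TGACG at 129 to 125 and at 66 to 62 bases before the start and TATAAA at 33 to 28, motifs that occur in 17.8% and 12.4% of windows. A GC box, which 32.7% of windows have, lies at 74 to 69 bases before the start in Fos, at 89 to 84 in Jun and at 96 to 91 in Ier3. The Jund window matched none of these motifs. Of the windows not shown, those of Fosb and Fosl2 each hold the EGR element, which is in 4.70% of windows, overlapped by a GC box. The core TGACG lies at 60 to 56 in the Fosb window, which has GC boxes farther upstream too, and at 106 to 102 in that of Junb. The Fosb window (chr7:19310046-19310295, minus strand) overlaps the gene as annotated, which ends at 19310118. Its core and EGR element thus lie within the annotated gene, before a start inside it. The AP-1 element, the full cyclic AMP element, the E-box and the CArG box were in none of the 7 windows read. In that order they are present in 6.75%, 1.55%, 6.02% and 1.47% of windows. Egr1, Fosl1 and Myc were not searched for any motif. A match is a description of letters, and elements farther upstream lie outside these windows.

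With all 6 arrays, 0 of the 10 genes passed the threshold of an adjusted p under 0.05 in limma, where 0.120% of all genes were called higher and 2.26% lower, 2.38% in all. At an unadjusted p under 0.05 the count was 1, for Ier3. Without DOX replicate 2, Jun, Jund and Myc rose and Ier3 fell, and the other 6 genes did not pass. That fit called 12.3% of all genes higher and 14.3% lower, 26.6% in all, and it rests on 2 arrays labelled DOX. The count of 3 higher and 1 lower among 10 genes is therefore to be read against a wide background. The median difference of the 10 genes was −0.23 with all arrays, beside 0.02 over all genes, and −0.02 without DOX replicate 2, beside 0.01.

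**Figure D1:**
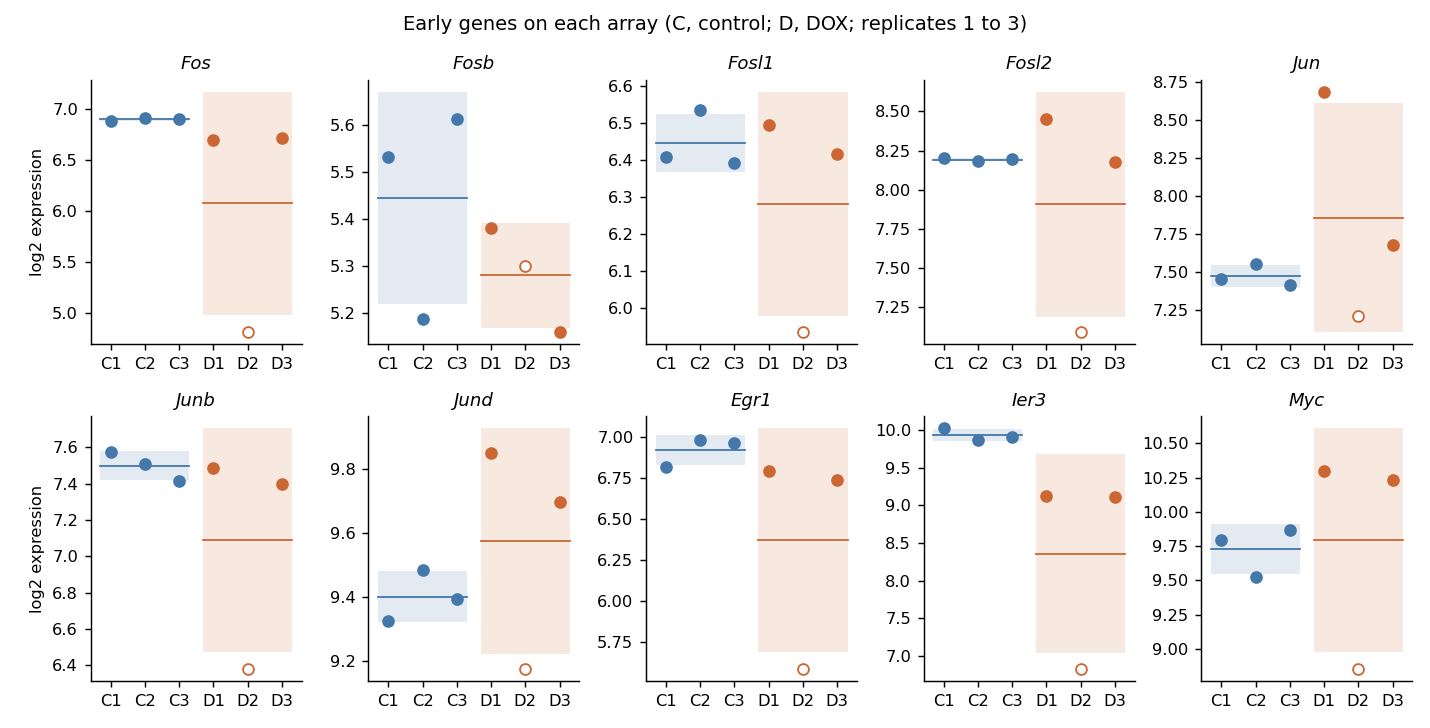
Log2 expression of each early gene on each array, control replicates 1 to 3 (C, blue) and DOX replicates 1 to 3 (D, orange, replicate 2 open); lines are group means and shaded bands 1 SD (n = 3 each), and each panel has its own vertical range. Ier3, Fos and Egr1 lie lower on all 3 arrays labelled DOX. Jun, Jund and Myc lie above the controls on DOX replicates 1 and 3 and below them on replicate 2. Of all genes, 20.3% lay below every control on all 3 arrays labelled DOX, and 25.4% above every control on DOX replicates 1 and 3.

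Ier3, also known as Iex-1, encodes a protein of the early stress response that affects cell survival and ERK signalling. It read 10.02, 9.86 and 9.90 in control arrays and 9.13, 6.83 and 9.12 in DOX replicates 1, 2 and 3. All 3 arrays labelled DOX lay below all 3 controls, as they did for 20.3% of all genes, and DOX replicates 1 and 3 differed by 0.012 from each other. The group means were 9.93 ± 0.08 and 8.36 ± 1.32 (SD, n = 3 each), a difference of −1.57 (SE 0.62, limma adjusted p = 0.328). The exact permutation test (two-sided) returned 0.1, and no smaller p is possible with 3 arrays against 3. Without DOX replicate 2 Ier3 fell by 0.81 (SE 0.11, 95% confidence interval −1.05 to −0.56, limma adjusted p = 3.46e-04), a level 1.75 times lower than in controls. Under 7 further settings without that array the difference was −0.88 to −0.76, and the call held in all 7 (highest adjusted p 0.00251).

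Jun, the prototype of its family and a target of JNK, read 7.45, 7.55 and 7.42 in control arrays and 8.69, 7.21 and 7.68 in DOX replicates 1, 2 and 3. DOX replicates 1 and 3 lay above every control, as they did for 25.4% of all genes, and replicate 2 lay below every control, so the direction differed within the group. The difference was 0.38 with all arrays (SE 0.38, limma adjusted p = 0.593). Without DOX replicate 2 Jun rose by 0.71 (SE 0.23, 95% confidence interval 0.21 to 1.21, limma adjusted p = 0.0408), a 1.63-fold difference. DOX replicate 1 exceeded replicate 3 by 1.01, which is more than the mean difference itself. Without DOX replicate 1 the difference with the other 5 arrays was −0.03, and 3 of the 7 further settings without DOX replicate 2 kept the call (adjusted p 0.0119 to 0.0993 in limma).

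Jund encodes the Jun family member that is usually present in resting cells and that restrains proliferation in some cell types. It read 9.33, 9.49 and 9.39 in control arrays and 9.85, 9.18 and 9.70 in DOX replicates 1, 2 and 3. Again the arrays labelled DOX fell on both sides of the controls, with replicate 2 low. The difference was 0.17 with all arrays (SE 0.23, limma adjusted p = 0.683) and Jund rose by 0.37 without DOX replicate 2 (SE 0.12, limma adjusted p = 0.0355), a 1.29-fold difference. That call held in 2 of 7 further settings without the array (highest adjusted p 0.13), and centring each array on its median with all arrays gave −0.03.

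Junb, which often acts against Jun on proliferation genes, read 7.57, 7.51 and 7.42 in control arrays and 7.49, 6.38 and 7.40 in DOX replicates 1, 2 and 3. Only DOX replicate 2 lay far from the controls, and DOX replicate 1 lay within their range. The difference was −0.41 with all arrays (limma adjusted p = 0.523). With that array left out it was −0.06, with a 95% confidence interval of −0.30 to 0.19 (limma adjusted p = 0.765), so that a change as large as that of Jun lay outside this interval.

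Fos, the partner of Jun in the classical AP-1 dimer, read 6.88, 6.91 and 6.90 in control arrays and 6.70, 4.81 and 6.71 in DOX replicates 1, 2 and 3. All 3 arrays labelled DOX lay below all controls, as they did for 20.3% of all genes. The SD of the controls was 0.0145, yet the gap of DOX replicates 1 and 3 to the control mean was small, at −0.20 and −0.19. The difference was −0.83 with all arrays (SE 0.52, limma adjusted p = 0.469) and −0.19 without DOX replicate 2 (95% confidence interval −0.43 to 0.04, limma adjusted p = 0.217). Most of the difference with all arrays thus came from 1 array.

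Fosb, a related factor that is normally induced with Fos, read 5.53, 5.19 and 5.61 in control arrays and 5.38, 5.30 and 5.16 in DOX replicates 1, 2 and 3. The groups overlapped, and the probe set lay near the middle of all genes of its array, at percentiles 37.9 to 45.8 in controls. Over all arrays the difference was −0.16, and −0.17 over the 5 without DOX replicate 2 (limma adjusted p = 0.649 and 0.427). On DOX replicate 2 its log2 value lay within the range of the controls, while its percentile there, 27.7, was lower than on any other array.

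Fosl1 and Fosl2 encode Fra-1 and Fra-2, Fos relatives that are typically induced later and last longer than Fos. Fosl1 read 6.41, 6.54 and 6.39 in control arrays and 6.49, 5.93 and 6.42 in DOX replicates 1, 2 and 3. Over all arrays the difference was −0.16, and 0.01 over the 5 without DOX replicate 2 (95% confidence interval −0.24 to 0.26, limma adjusted p = 0.675 and 0.965). DOX replicates 1 and 3 lay within the range of the controls. Fosl2 read 8.20, 8.18 and 8.19 in control arrays and 8.45, 7.09 and 8.17 in DOX replicates 1, 2 and 3. For Fosl2 the 2 fits gave −0.29 and 0.12 (limma adjusted p = 0.669 and 0.51), and DOX replicates 1 and 3 fell on either side of the controls. Across the 4 Fos genes, 0 passed in limma in either fit, and at an unadjusted p under 0.05 the count was also 0.

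Egr1, which drives growth factor and feedback genes, read 6.82, 6.98 and 6.96 in control arrays and 6.79, 5.58 and 6.74 in DOX replicates 1, 2 and 3. All 3 arrays labelled DOX lay below all controls, as for 20.3% of all genes, although DOX replicate 1 came close to the lowest control. The difference was −0.55 with all arrays (SE 0.35, limma adjusted p = 0.471) and −0.16 without DOX replicate 2 (95% confidence interval −0.41 to 0.09, limma adjusted p = 0.353). A 2-fold decrease lay outside the second interval.

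Myc, a driver of ribosome production and cell growth, read 9.79, 9.53 and 9.87 in control arrays and 10.30, 8.85 and 10.23 in DOX replicates 1, 2 and 3. DOX replicates 1 and 3 lay above every control and replicate 2 below every control. The difference was 0.07 with all arrays (SE 0.41, limma adjusted p = 0.932). Its sign with all arrays was not stable, since it was −0.14 when each array was centred on its median, −0.19 without DOX replicate 1, −0.15 without DOX replicate 3 and −0.04 without control replicate 2. Without DOX replicate 2 Myc rose by 0.54 (SE 0.13, 95% confidence interval 0.25 to 0.82, limma adjusted p = 0.0103), a 1.45-fold difference, and the call held in all 7 further settings without that array (highest adjusted p 0.0478).

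**Figure D2:**
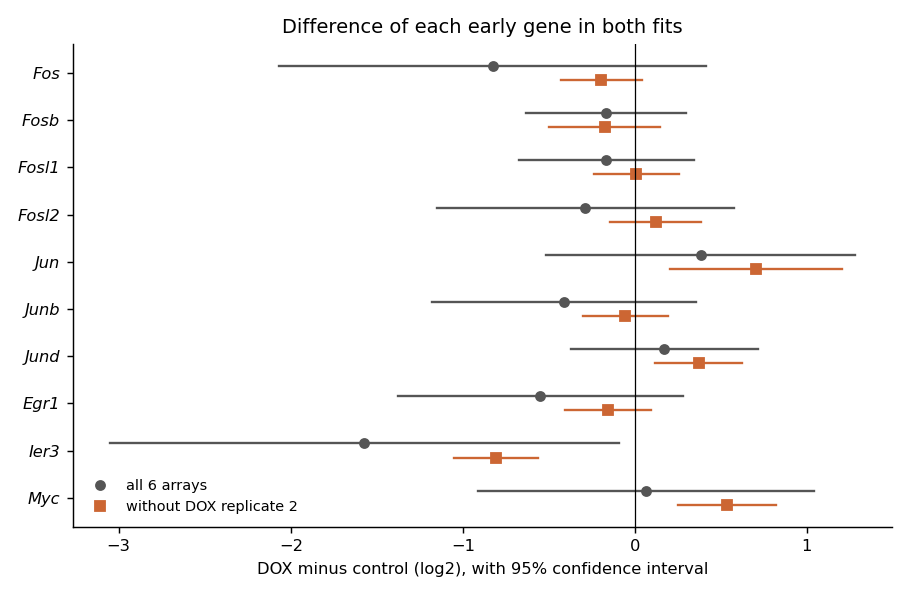
Difference between arrays labelled DOX and control arrays on the log2 scale with its 95% confidence interval from limma, for all 6 arrays (grey circles) and without DOX replicate 2 (orange squares). The intervals of Jun, Jund and Myc lie above 0 and that of Ier3 below 0 without DOX replicate 2, while with all arrays only the interval of Ier3 excludes 0.

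Because DOX replicate 2 was compressed, each gene was also described by its percentile among all genes of the same array, a choice made after seeing the data. On this scale Jun, Jund and Myc lay higher and Ier3 lower on all 3 arrays labelled DOX than on any control, DOX replicate 2 included. Jun stood at percentiles 70.0, 71.7 and 68.9 in controls and 85.7, 81.9 and 75.0 in DOX replicates 1, 2 and 3. Jund stood at 92.4, 93.6 and 92.7 in controls and 95.3, 97.7 and 94.9 in DOX replicates. Myc stood at 95.3, 93.8 and 95.7 and then 97.2, 96.6 and 97.2, and Ier3 at 96.3, 95.7 and 95.8 and then 90.2, 74.0 and 90.9. The other 6 genes overlapped between groups. Of all genes, 19.0% lay wholly higher and 18.4% wholly lower by percentile, and the 3 and 1 of 10 are to be read beside these shares. Fos and Egr1, which were lower on all 3 arrays in log2 values, were not separated by percentile: Fos stood at 61.4 to 61.9 in controls and at 60.6, 16.0 and 62.3 in DOX replicates 1, 2 and 3, and Egr1 at 60.7 to 63.0 and then 61.6, 36.3 and 62.6.

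**Figure D3:**
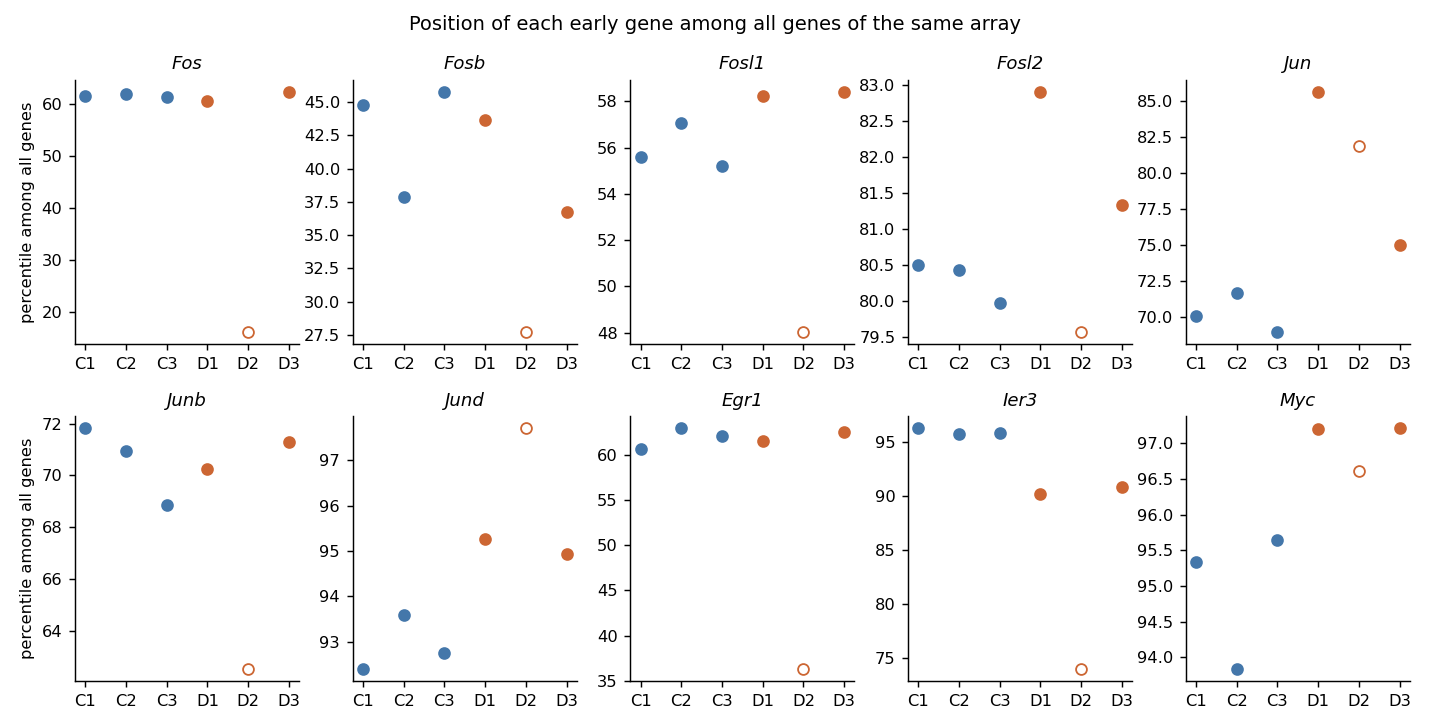
Percentile of each early gene among all 19937 genes of the same array, for control replicates 1 to 3 (C, blue) and DOX replicates 1 to 3 (D, orange, replicate 2 open); each panel has its own vertical range. Jun, Jund and Myc lie above and Ier3 below the controls on all 3 arrays labelled DOX, and Fos and Egr1 lie near the controls on 2 of them and far below on DOX replicate 2.

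The level of a gene set much of its value on DOX replicate 2, so the genes were read there beside the median of all genes in the same 10% step of control level. As many genes of a step lie above its median as below it, so the side alone is not unusual. The spread within a step is not given here. Jun was 0.26 below its control mean (−0.26) where its step had a median of −1.06. Jund and Myc differed by −0.23 and −0.88 where their step had a median of −1.59. Ier3, of the same step, differed by −3.10. Fos and Egr1 differed by −2.09 and −1.33, and their step had a median of −0.75. Junb differed by −1.12 beside a step median of −1.06, and Fosl2 by −1.10 beside −1.36. Fosb differed by −0.15 beside 0.30 and Fosl1 by −0.51 beside −0.26, both below their steps. On DOX replicates 1 and 3 no step of these genes had a median farther from 0 than −0.12, while Jun differed by 1.21 and 0.20, Myc by 0.57 and 0.50, Jund by 0.45 and 0.29 and Ier3 by −0.80 and −0.81.

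**Figure D4:**
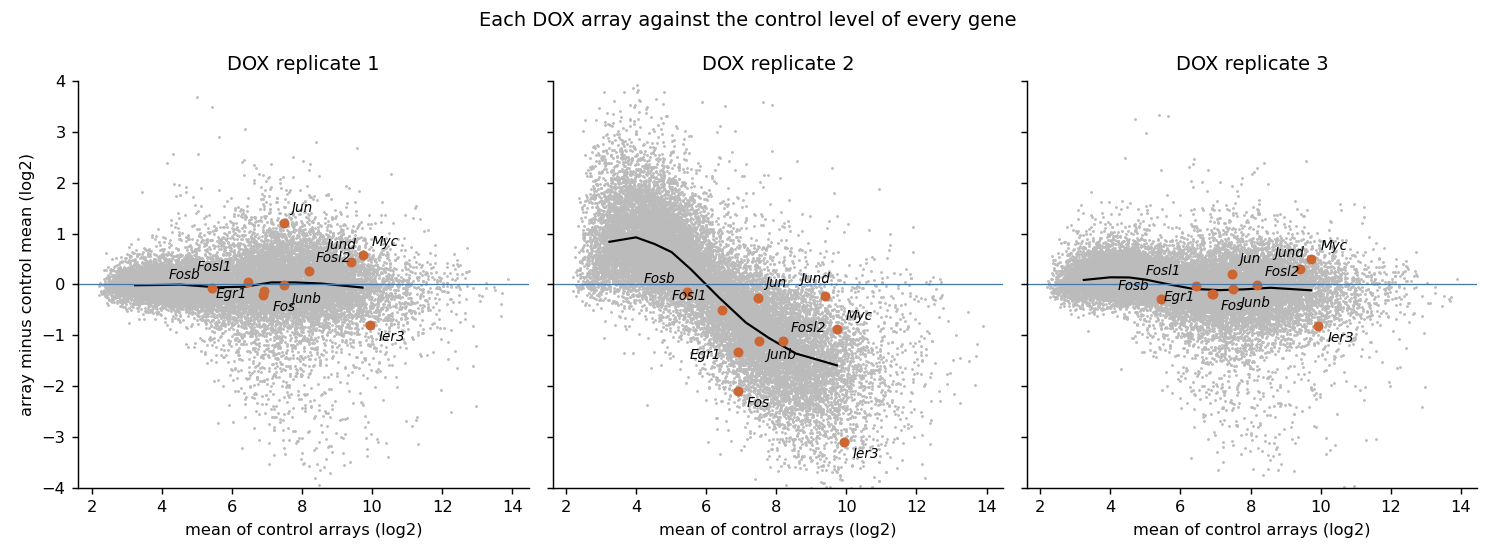
Difference of each DOX array from the mean of the control arrays against that mean, both on the log2 scale, for every gene (grey; genes beyond 4 units are not shown), with the early genes in orange and the median of each 10% step of control level as a black line. On DOX replicate 2 the line runs from 0.84 in the lowest step to −1.59 in the highest. Jun, Jund and Myc lie above it there, while Ier3, Fos and Egr1 lie below it. As many genes of a step lie above its median as below it.

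Of 14 measured bZIP partners of AP-1, a list of factors that pair with Fos or Jun proteins or bind related sites, 7 rose, none fell and 7 did not pass without DOX replicate 2, with a median of 0.36. Over all genes that fit called 12.3% higher and 14.3% lower, with a median of 0.01, and the counts of the lists below are to be read beside these shares. The small Maf genes Maff and Mafk rose by 1.15 (SE 0.18) and 0.94 (SE 0.16). Maff read 6.21, 6.16 and 6.18 in control arrays and 7.71, 6.13 and 6.96 in DOX replicates 1, 2 and 3, so DOX replicates 1 and 3 were far above the controls and replicate 2 was near their level. Nfe2l1, an activator of proteasome genes, rose by 1.00 (SE 0.14). Atf3, a stress-induced repressor that pairs with Jun, rose by 1.42 (SE 0.29), and it lay above the controls on all 3 arrays labelled DOX, at 9.12, 8.54 and 7.78 against 6.88 to 7.16. Atf4, the regulator of the amino acid stress response, rose by 0.57 (SE 0.12). With all arrays 0 of the 14 passed in limma, 2 were higher at an unadjusted p under 0.05, and the median was 0.17.

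Of the 5 other Egr genes and Nab corepressors, 2 fell and 1 rose without DOX replicate 2, and 0 passed with all arrays in limma, with 2 lower at an unadjusted p under 0.05. Nab2, itself an Egr1 target that restrains Egr1, read 8.42, 8.60 and 8.46 in control arrays and 7.67, 7.54 and 7.86 in DOX replicates 1, 2 and 3. Its log2 values were lower on all 3 arrays, with a difference of −0.80 in the fit of all arrays (limma adjusted p = 0.0942), and Nab2 fell by 0.72 without DOX replicate 2 (limma adjusted p = 0.0011). By percentile it stood at 83.4 to 85.6 in controls and at 72.7, 86.8 and 77.4 in DOX replicates 1, 2 and 3, so on that scale replicate 2 lay above the controls. Across the alternatives its difference came as near to 0 as −0.42. Egr3 fell by 0.43 and Nab1 rose by 0.44 in the same fit (limma adjusted p = 0.0324 and 0.0142), calls that held in 3 and 5 of the 7 further settings without that array (highest adjusted p 0.118 and 0.0559). Egr2 and Egr4 did not pass, with differences of 0.03 and −0.23.

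The Myc and Max network, taken here as Max, relatives of Myc, other partners of Max and the linked Mlx factors, was split. Of 12 genes 3 rose and 3 fell without DOX replicate 2 (median −0.18), and with all arrays 0 passed in limma, with 1 higher and 3 lower at an unadjusted p under 0.05. Mycn, a close relative of Myc, fell by 0.66 (SE 0.12), in contrast to the rise of Myc in the same fit. Mycn read 7.15, 7.22 and 7.35 in control arrays and 6.52, 6.09 and 6.64 in DOX replicates 1, 2 and 3, lower on all 3. The Max partners Mxd3 and Mxd4, which oppose Myc, fell by 0.75 and 0.49, and the repressor Mnt rose by 0.53 and Mlxip by 0.56. Max itself differed by 0.27 (limma adjusted p = 0.111).

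Of 33 other early response genes, Nr4a1 fell with all arrays and no other passed. In the fit of 5 arrays, 12 fell, 7 rose and 14 did not pass (median −0.18), beside 14.3% lower and 12.3% higher over all genes. Nr4a1, an orphan nuclear receptor induced with Fos and Egr1, read 9.66, 9.77 and 9.79 in control arrays and 7.37, 6.05 and 7.67 in DOX replicates 1, 2 and 3. Each array labelled DOX lay far below each control, and Nr4a1 fell by 2.71 with all arrays (SE 0.42, limma adjusted p = 0.0274). In the fit without DOX replicate 2 Nr4a1 fell by 2.22 (SE 0.13, limma adjusted p = 4.26e-07). The call with all arrays was lost without control replicate 1, 2 or 3 and without DOX replicate 1 (adjusted p 0.069 to 0.174), with the replicate number as a block (adjusted p = 0.0636) and with centred arrays (adjusted p = 0.0557). In these 6 settings the difference itself was −2.92 to −2.69, beside −2.71 with all arrays. Ccn1, a matrix protein gene under serum response factor, fell by 0.99 without DOX replicate 2 and Arc by 0.86 (SE 0.13 and 0.14). In the same fit Klf6, a zinc finger factor, rose by 1.15, as did Maff, which with Atf3 and Srf stands in more than 1 list. Ier2, named here after its values were seen, fell by 0.66, and Btg2, likewise, rose by 0.58.

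Of 10 genes of serum response factor, its partners and coactivators, 3 rose, none fell and 7 did not pass without DOX replicate 2, and with all arrays 0 passed in limma, also at an unadjusted p under 0.05. The coactivators Ep300 and Crebbp rose by 1.24 and 0.80 and the actin-regulated coactivator Mrtfb by 0.67. Srf itself differed by −0.32 (limma adjusted p = 0.0674). The list of MAP kinases acting on AP-1 had 10 measured genes, among them MAP kinase kinases and ribosomal S6 kinases such as Rps6ka3. In that list Rps6ka3 rose by 0.36 and Mapk14, which encodes p38, fell by 0.34 without DOX replicate 2. Those calls held in 2 and 3 of the 7 further settings without that array (highest adjusted p 0.144 and 0.157), and with all arrays the differences were −0.52 and −0.57. Mapk8 and Mapk9, which encode JNK kinases, did not pass (differences 0.13 and 0.16, limma adjusted p = 0.464 and 0.371). With all arrays 0 of the kinase genes passed in limma, with 1 lower at an unadjusted p under 0.05.

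Genes known as targets of AP-1 and of Myc did not move in 1 direction. Of 18 measured AP-1 targets 6 rose and 3 fell without DOX replicate 2 (median 0.18). Hmox1, the haem-degrading stress enzyme gene, rose by 1.48 (SE 0.13), Mt1, a metallothionein gene, by 1.06 and the cytokine gene Lif by 0.82, whereas Ccnd1, which encodes cyclin D1, fell by 0.74 and the protease gene Plau by 0.66. Ccnd1 read 11.42, 11.47 and 11.42 in control arrays and 10.48, 8.41 and 10.91 in DOX replicates 1, 2 and 3, below the controls on all 3. With all arrays 0 of the AP-1 targets passed in limma, and 2 were higher and 3 lower at an unadjusted p under 0.05.

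Of 26 Myc targets 9 fell, 3 rose and 14 did not pass without DOX replicate 2 (median −0.03), beside 14.3% lower and 12.3% higher over all genes in that fit. Tfrc, the transferrin receptor gene, fell by 1.23 (SE 0.11), the ribosome assembly gene Mrto4 by 0.88, the spermidine synthase gene Srm by 0.79 and the purine synthesis gene Ppat by 0.58, while the nucleolar gene Gnl3 rose by 0.69. With all arrays 0 passed in limma, and 6 were lower at an unadjusted p under 0.05. Tfrc read 10.02, 10.16 and 10.14 in control arrays and 8.86, 6.08 and 8.90 in DOX replicates 1, 2 and 3. Mrto4 read 7.70, 7.76 and 7.75 in controls and 6.99, 6.93 and 6.73 in DOX replicates 1, 2 and 3 (difference −0.86 with all arrays, limma adjusted p = 0.0621). By percentile Mrto4 stood at 73.6 to 74.6 in controls and at 64.0, 76.2 and 62.5 in DOX replicates 1, 2 and 3, so replicate 2 lay above the controls on that scale. Across the alternatives its difference ran from −1.06 to −0.24.

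**Figure D5:**
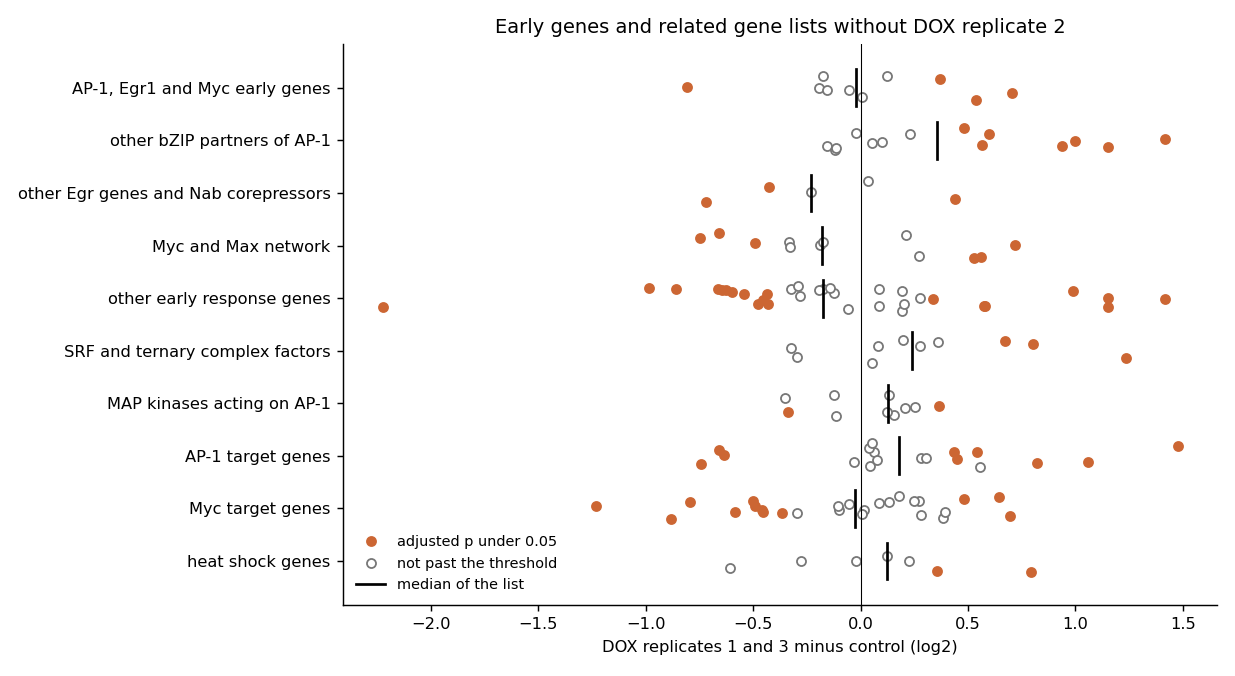
Log2 difference of DOX replicates 1 and 3 from the 3 control arrays for each early gene and each gene of the related lists; filled orange points have an adjusted p under 0.05 in limma, open points do not, and the black bar is the median of the list. The bZIP partners have 7 genes past the threshold, all higher, and the early genes have Ier3 on the left and Jund, Myc and Jun on the right.

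Heat shock genes, which often rise when tissue is handled, were given beside these values. Of 7 measured, Hsph1 rose by 0.79 and Hsp90aa1 by 0.35 without DOX replicate 2, none fell, and Hspa1a did not pass (difference 0.12, limma adjusted p = 0.612). The call of Hsph1 held in all 7 further settings without that array and that of Hsp90aa1 in 1 of 7 (highest adjusted p 0.156). On all 6 arrays 0 of them passed in limma, also at an unadjusted p under 0.05. The part of tissue handling in the early gene values was not tested.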

How the data were processed

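RNA from 6 organoid cultures was hybridised to 1-colour Affymetrix arrays. The authors deposited 1 log2 value per probe set, made with RMA from the affy package as far as the submitters' processing notes tell, which give no version. Of 34760 probe sets, 21640 carried 1 gene symbol in the platform annotation. The 1321 with several symbols and the 11799 with none were not used. Where a gene had several probe sets, that of the highest mean over the arrays stood for it. No source used here names the annotation's build, so promoter positions are those of RefSeq (GRCm38.p6). Groups came from the sample titles.

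limma 3.58.1 (R 4.3.3; lmFit, eBayes, two-sided, no covariates) was run on all 19937 genes, with Benjamini-Hochberg adjustment and a threshold of 0.05, on all arrays and without DOX replicate 2. The fit was also run on simulated data. There the sign of the calls was checked, and recovery of the larger set differences was required only without DOX replicate 2. How often the fit of all arrays misses a difference is not given here. Members and gene lists were chosen with earlier results of these data known. All 10 members are named. Of each other list, up to 5 genes called with all arrays and up to 5 called without DOX replicate 2 were eligible, smallest p first. Max, Egr2, Egr4, Srf, Mapk8, Mapk9, Hspa1a and the cell type markers were named outside this rule, after their values were seen. Alternatives were the replicate block, each array left out, 25% or 50% of low genes left out, quantile or cyclic loess normalization, median centring, probe set means, a robust variance trend, and array weights. The 7 further settings without DOX replicate 2, chosen after seeing the data, were 3 normalizations, the replicate block, and each control array left out as well.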

Additional observations from a re-analysis of the deposited data

How the results depend on the processing

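With all 6 arrays, 24 genes were higher and 450 lower over all genes, and 0 and 0 of the 10 early genes. The median difference of the 10 was −0.23, and it ranged from −0.43 with centred arrays to −0.02 without DOX replicate 2, and to 0.01 when quantile normalization was added to that. When 1 array at a time was dropped, the number of genes called higher ranged from 2 to 2454 and the number called lower from 61 to 2855, and those of the early genes from 0 to 3 and from 0 to 1, with the highest counts without DOX replicate 2. A second quantile normalization gave 185 higher and 626 lower genes, median centring 7 and 487, cyclic loess 557 and 1197, and array weights 3642 and 3752. Centring moved the median of all genes from 0.02 to −0.18. Cyclic loess called 1 early gene lower (Ier3), and array weights called 2 higher (Jund and Myc) and 1 lower (Ier3).

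With DOX replicate 2 left out, a quantile normalization gave 2360 higher and 3408 lower genes, cyclic loess 2531 and 3214, and centring 1823 and 3410. These called 3, 3 and 1 early genes higher, and each called 1 lower. Leaving out a control array as well gave 1714, 1550 and 1902 higher and 2323, 2168 and 2282 lower genes, with 1 early gene higher and 1 lower each time. The causes of these shifts were not tested.

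Deviations of same-numbered arrays from their group means had correlations of 0.117, 0.194 and 0.0852 for replicates 1, 2 and 3. With DOX arrays of another number, the same control arrays had −0.123 to 0.116, −0.185 to −0.182 and −0.0914 to 0.0877. Deviations within a group sum to 0, so the correlations of a control array with the DOX arrays are tied to each other. DOX replicate 2, which stood apart, weighs on all of them. These values therefore cannot show whether the numbers are pairs. The numbers were not taken as pairs in the main fit because no methods name a block. With the replicate number as a block, 3 genes were higher and 159 lower, with 0 and 0 early genes. The replicate block with DOX replicate 2 left out gave 1841 higher and 2320 lower, with 2 and 1 early genes. Fosb was not among the genes kept when the lowest 50% were left out. No detection calls were used here, so low values carry an unknown share of background.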
